A study of Mus musculus with 12 samples.

Results

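The genes described here are the splicing and RNA-binding protein genes that carry one of a fixed set of family names. They are the rows whose gene symbol begins with Snrp, Srsf, Srrm, Hnrnp, Sf3, Prpf, Lsm, Rbm, Ddx, Dhx, Nop followed by a digit, U2af or Luc7l, or is one of Clk1 to Clk4, with Ddx58 and Dhx58 left out. The rule used names only and found 66 genes among the 3799 rows of the deposited table. All 66 had a mean of at least 1 FPKM over the 12 libraries (fragments per kilobase of transcript and sequencing depth, a level corrected for transcript length and library size) and were tested. Of these Ddx60 reached that mean only through its DOX + K27 values and Rbm12 only with both its DOX + K35 and its DOX + K27 values, as the means without the group were 0.798 for Ddx60 and 0.919 and 0.994 for Rbm12. The table is a selection made by the authors: GENCODE M21 holds 199 protein-coding genes whose symbols meet the rule and 66 of these are in it, so each share below is a share of that selection. Livers came from male C57BL/6J mice that were 8 weeks old at the start, in 4 groups of 3 libraries. The DOX, DOX + K35 and DOX + K27 mice were injected intraperitoneally on day 0 and day 7 with 10 mg/kg doxorubicin (DNA-damaging chemotherapy, used to model premature aging), and the Saline mice were injected with saline. From day 2 on, vehicle, 50 mg/kg K35 or 50 mg/kg K27 was given intragastrically every other day. The livers are from day 20. K35 came from an in-house library of small molecules screened on the glycolytic enzyme PKM2, and K27 is an analog of K35 picked afterwards. The labels call the Saline group vehicle.

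Introns are removed from pre-mRNA by the spliceosome, whose small nuclear ribonucleoproteins (snRNPs) are built on rings of Sm or LSm proteins and completed by the SF3 and PRPF proteins. SR and LUC7-like proteins help to choose splice sites, CLK kinases phosphorylate the SR proteins, and hnRNP and many RBM proteins bind the transcript and favour or block exons. DEAD-box (DDX) and DEAH-box (DHX) helicases remodel RNA at steps from splicing and export to ribosome assembly and translation, and Nop56 and Nop58 are core proteins of the box C/D particles that guide methylation of ribosomal RNA. The members comprised 8 Sm and LSm genes, 3 SF3 genes, 6 PRPF genes, 7 SR and LUC7-like genes, 3 CLK genes, 3 hnRNP genes, 11 RBM genes, 16 DDX genes, 7 DHX genes and 2 NOP genes. No Srrm or U2af gene was among them.

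The 250 bases before the RefSeq start site are shown for 4 members that stand for the patterns described below: Ddx60, which differed between K35 and K27, Rbm45 and Dhx9, which rose with K35, and Srsf5, the SR gene with the highest level. The capitals mark a motif on either strand, which is GAAA, any 2 bases, GAAA (a core of interferon response elements) in Ddx60 and the ETS core CCGGAAG in the other 3.
Ddx60: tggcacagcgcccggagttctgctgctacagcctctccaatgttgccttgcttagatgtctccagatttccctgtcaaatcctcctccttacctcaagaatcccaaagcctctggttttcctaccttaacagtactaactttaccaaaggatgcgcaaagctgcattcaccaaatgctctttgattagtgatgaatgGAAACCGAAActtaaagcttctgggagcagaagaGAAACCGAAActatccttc
Rbm45: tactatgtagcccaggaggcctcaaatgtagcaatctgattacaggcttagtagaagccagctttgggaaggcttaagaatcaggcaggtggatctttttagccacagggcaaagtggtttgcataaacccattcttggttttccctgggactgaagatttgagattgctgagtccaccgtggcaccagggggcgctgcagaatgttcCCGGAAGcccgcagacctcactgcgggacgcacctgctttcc
Dhx9: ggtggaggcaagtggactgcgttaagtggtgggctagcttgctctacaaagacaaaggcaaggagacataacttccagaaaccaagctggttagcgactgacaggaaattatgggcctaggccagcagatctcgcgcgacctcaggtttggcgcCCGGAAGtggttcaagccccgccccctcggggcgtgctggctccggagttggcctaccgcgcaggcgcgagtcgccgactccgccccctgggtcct
Srsf5: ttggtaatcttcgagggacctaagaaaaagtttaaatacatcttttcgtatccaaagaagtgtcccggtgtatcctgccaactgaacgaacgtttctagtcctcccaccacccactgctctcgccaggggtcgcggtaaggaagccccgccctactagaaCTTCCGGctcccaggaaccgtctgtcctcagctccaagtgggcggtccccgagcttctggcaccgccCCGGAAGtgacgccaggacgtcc
On GRCm38.p6 these are chr8:61927837-61928086 on the plus strand, chr2:76369734-76369983 on the plus strand, chr1:153487661-153487910 on the minus strand and chr12:80945249-80945498 on the plus strand. In GENCODE M21 the Ddx60 window overlaps the gene model Gm45418 and the Srsf5 window overlaps Gm20337, while the windows of Rbm45 and Dhx9 overlap no gene. The Ddx60 matches begin at -53 and -19, counting -1 as the base before the start site, and those of Srsf5 begin at -90 and -23. The single matches shown for Rbm45 and Dhx9 begin at -42 and -96.

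Promoter windows from 250 bases before to 50 bases after the start were found in RefSeq for 59 of the 66 members. The ETS core was in 20 of these 59 genes (33.9%), against 18.7% of the genes of the deposited table and 9.93% of all RefSeq promoters of the same length. It was in 10 of 21 DDX and DHX genes and in 4 of 8 SR, LUC7-like and CLK genes. The interferon response core was in 3 of 59 members (5.08%), namely Ddx60, Prpf40b and Rbm28, against 4.31% of the table and 3.99% of all promoters. The GC box GGGCGG was in 72.9% of members and 66.4% of the table, the CCAAT box CCAAT in 42.4% and 41.4%, the TATA box TATAAA in 10.2% and 9.71%, and the E-box CACGTG in 13.6% and 12.1%. In all RefSeq promoters these last 4 were in 38.2%, 41.1%, 15.7% and 8.09%. Both strands were searched and matches of different motifs can overlap. A match is a string of letters, and no binding was measured. The members had a median transcript length of 3080 bases, 48.2% GC and 13 exons, against 3010 bases, 50% and 9 exons over all genes tested.

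Between libraries of one group, Pearson r over the table was 0.923 to 0.991. The share of the summed values taken by 13 mitochondrially encoded genes was 48.2% to 61.9% in Saline, 62.2% to 83.3% in DOX, 37.9% to 48.7% in DOX + K35 and 50% to 68.0% in DOX + K27. FPKM values are scaled to the library, so fold changes are set below against the median of all genes. The 4 hepatocyte markers in the table (Apoa1, Cps1, Cyp2e1 and Apob) summed to 8827 to 9467 FPKM in Saline, 6027 to 12142 in DOX, 8642 to 10436 in DOX + K35 and 11185 to 12579.5 in DOX + K27. The sum hides opposite signs. In DOX against Saline the log2 fold changes of Cps1, Cyp2e1 and Apob were -0.89, -1.63 and -1.01, and that of Apoa1 was 0.46. None of these passed the test. The 4 globin genes, markers of red blood cells, summed to 329.8 to 506 FPKM in Saline, 821 to 1135 in DOX, 62.2 to 596 in DOX + K35 and 452 to 1072 in DOX + K27. The 7 Kupffer cell markers summed to 103 to 271 FPKM in Saline, 30.7 to 78.6 in DOX, 74.9 to 122 in DOX + K35 and 77.6 to 132 in DOX + K27. In whole liver, fewer cells of a type and less RNA per cell cannot be told apart. DOX libraries B3 and B4 and DOX + K35 library C4 have no replicate number of their own and are named by their codes.

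**Figure D1:**
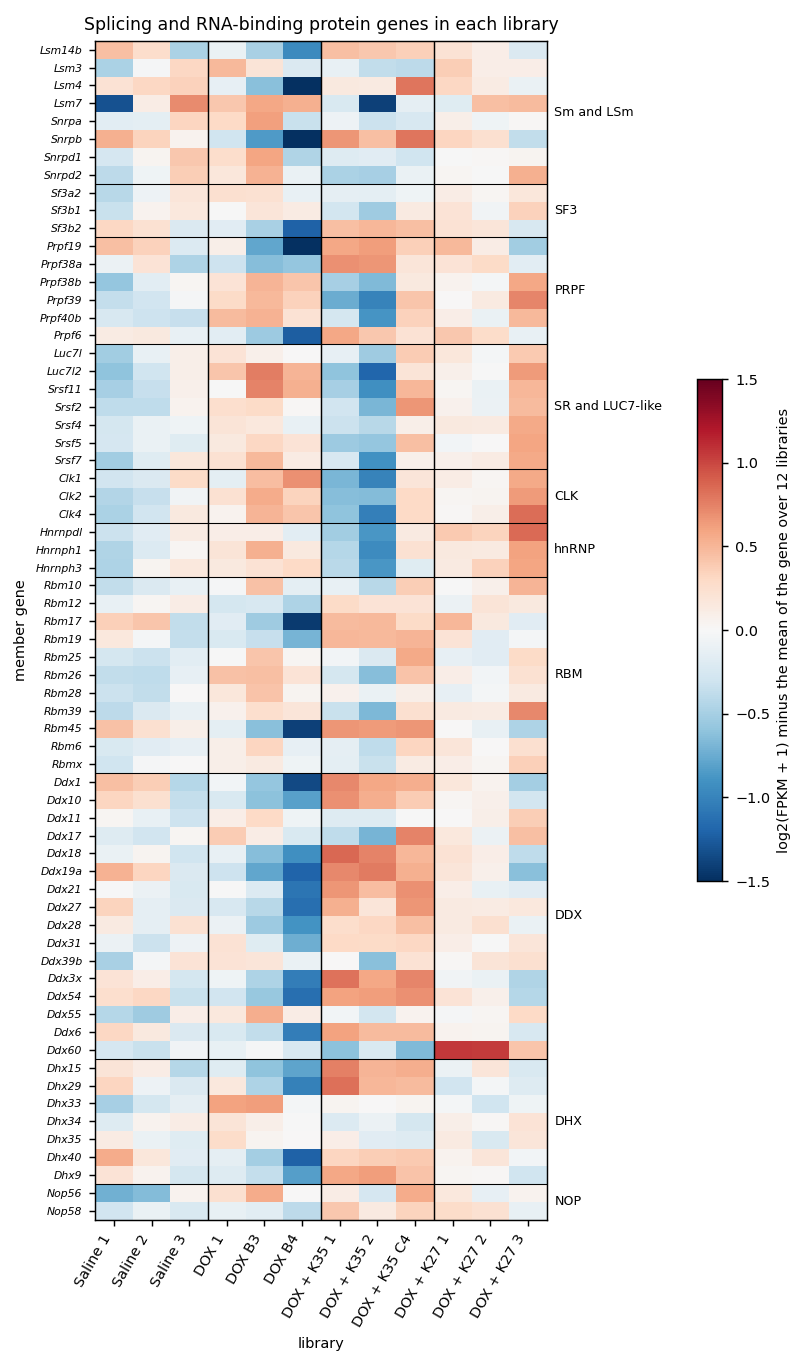
The 66 members (rows, grouped by role) in the 12 libraries (columns), coloured by log2(FPKM + 1) minus the mean of the gene over all libraries, from -1.5 (blue) to 1.5 (red). The SR, LUC7-like, CLK and hnRNP genes are mostly blue in DOX + K35 replicates 1 and 2 and mostly red in DOX + K35 library C4, and many DDX and DHX genes are red in all 3 DOX + K35 libraries and darkest blue in DOX library B4.

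The comparison of DOX with Saline asks what doxorubicin did to these genes. No member passed the test, against 0.181% of all genes tested. The largest difference below 0 was that of Snrpb, which encodes the SmB ring protein of the spliceosomal snRNPs, at -1.32 ± 0.37 (log2 fold change of FPKM + 1 ± SE) with an adjusted p of 0.0612 from limma. The largest above 0 was that of Luc7l2, a partner of the U1 snRNP, at 0.83 ± 0.37 with an adjusted p of 0.0897. Among members 39 were above 0 and 27 below, with a median of 0.16, while the median of all genes was -0.34.

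By role, all 7 SR and LUC7-like genes (0.22 to 0.83), all 3 CLK genes (0.41 to 0.65) and all 3 hnRNP genes (0.14 to 0.50) were above 0 in DOX, and 11 of 16 DDX genes and 4 of 7 DHX genes were below 0. The lowest adjusted p-values from limma in these roles, in this order, were 0.0897, 0.0922, 0.234, 0.0612 and 0.0612. The median of all genes was below 0 as well, so the helicases below 0 shared the sign of most genes. Values of the 3 DOX libraries lay wholly above those of Saline for 13 members (19.7%) and wholly below for 8 (12.1%), against 12.3% and 23.0% of all genes. Among the 13 were Luc7l2, Srsf5, Clk2, Prpf38b, Prpf40b, Hnrnph1, Rbm39 and Dhx33, and among the 8 were Snrpb, Lsm4, Rbm45, Prpf6 and Ddx19a. The counts of calls depended on single libraries, as 13 members passed without Saline replicate 3 (3 higher and 10 lower, which is 4.55% and 15.2% of members against 4.58% and 31.3% of all genes) and 18, all lower, without DOX replicate 1 (27.3% against 41.9%). They also depended on the scaling, with 9 higher and 6 lower calls after median-ratio scaling (10% and 21.9% of all genes were called), 15 and 5 after quantile normalization (12.2% and 10.9%) and 32 and 2 after the 20 highest genes were left out (29.9% and 3.90%). In all 5 scalings 39 members were above 0 and 21 below, and the sign of 6 differed, all of them below 0 with the deposited scaling. A scaling that moves all values upward cannot turn a value that is above 0, so these counts do not measure how steady the signs were.

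The comparison of DOX + K35 with DOX asks what K35 did on top of doxorubicin. It gave the calls: 27 members rose and 5 fell. The rises were in the helicases (11 of 16 DDX genes and 4 of 7 DHX genes), in 4 RBM genes, in 3 Sm and LSm genes, in 3 PRPF genes, in Sf3b2 and in Nop58. The falls were those of Luc7l2, Lsm7, Prpf39, Prpf38b and Hnrnph3. These shares (40.9% and 7.58% of members) were near or under the 46.0% and 10.7% of all genes tested, so the number of calls does not mark the members out.

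What the counts do not show is the split by role. None of the 13 SR, LUC7-like, CLK and hnRNP genes was above 0, while the median was 1.05 over the DDX genes and 0.98 over the DHX genes and 0.46 over all genes. The median over all members was -0.19, with 27 members above 0 and 39 below. All 27 members above 0 passed the test, the lowest of them at 0.52. The groups' values did not overlap for the same number of higher members, 27, and for 7 lower ones, against 44.3% and 15.4% of all genes. The same 27 members were above 0 and the same 39 below in each of 5 scalings. The median of all genes was lower in each of the other scalings, so a change of sign was open mainly to the 27. That the 39 stayed below 0 is therefore no check on them. The split of calls was not kept, with 25 higher and 32 lower after median-ratio scaling (44.1% and 34.0% of all genes were called), 24 and 35 after quantile normalization (38.4% and 32.2%), 15 and 39 after the 20 highest genes were left out (27.5% and 43.5%) and 25 and 24 after the mitochondrially encoded genes were left out (42.5% and 27.2%). In all 5, 15 members were called higher and all 5 named above lower. The 15 were Ddx1, Ddx10, Ddx18, Ddx19a, Ddx21, Ddx27, Ddx3x, Ddx54, Ddx6, Dhx15, Dhx29, Prpf38a, Rbm19, Rbm45 and Snrpb. Each of the other rises lost its call in at least 1 scaling.

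Single libraries bore on the falls more than on the rises. Of the 27 rises 24 were called in each of the 12 fits that left out 1 library, and the number of rises was 24 to 27. None of the 5 falls was called in all 12 fits, and the number of falls ranged from 0, without DOX library B3 or without DOX + K35 replicate 2, to 13, without DOX + K35 library C4 (19.7% of members against 16.8% of all genes). The falls numbered 1 without DOX + K35 replicate 1, 2 without Saline replicate 2 or DOX + K27 replicate 2, and 3 without Saline replicate 1 or DOX + K27 replicate 1. The share of all genes called lower dropped as well, from 10.7% with all 12 libraries. It was 5.09% without library B3, and 4.79% and 5.70% without DOX + K35 replicates 2 and 1. Without the Saline and DOX + K27 replicates just named it was 9.23% to 9.83%. Other settings lowered the falls too: 3 with a pseudocount of 0.1 (Hnrnph3, Luc7l2 and Prpf39), 2 with no filter on low values (Hnrnph3 and Luc7l2) and 1 when only the 2 groups compared were fitted (Lsm7), against 10.6%, 11.5% and 7.45% of all genes. The 13 without library C4 included all 3 CLK genes, Srsf7, Srsf11 and Hnrnph1.

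**Figure D2:**
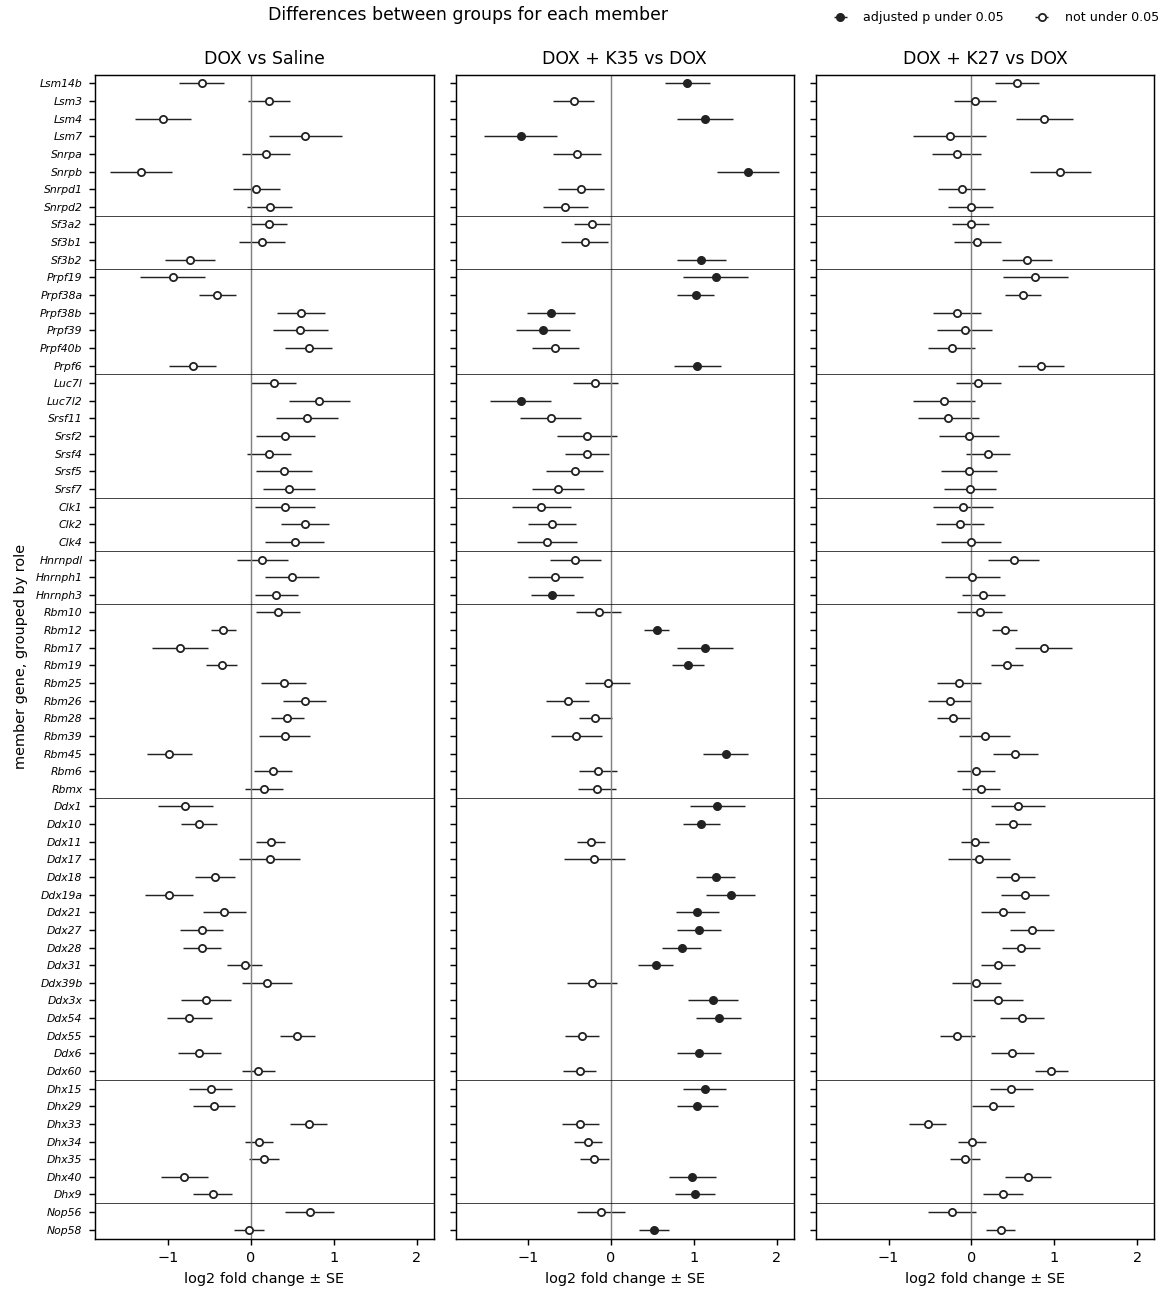
Log2 fold change of FPKM + 1 (x axis) for each of the 66 members (rows, grouped by role) in DOX against Saline, DOX + K35 against DOX and DOX + K27 against DOX, with bars of 1 SE. Filled points have an adjusted p under 0.05 and are found in the middle panel only, 27 right of 0 and 5 left of it. The 3 panels share the DOX libraries, so the outer panels are not independent of the middle one.

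Among the Sm and LSm genes, Snrpb (7 exons at chr2:130171414-130179403 on the minus strand, GRCm38, GENCODE M21) had the largest rise of any member. It was at 33.0, 28.5 and 23.4 FPKM in the Saline libraries, 18.1, 12.0 and 5.35 in DOX, 36.2, 31.0 and 39.9 in DOX + K35 and 28.3, 26.7 and 17.1 in DOX + K27. Every DOX + K35 library was above every DOX library, and the log2 fold change was 1.65 ± 0.37 (SE, limma adjusted p = 0.00561). Lsm4, a component of the LSm ring on U6 snRNA, rose by 1.13 ± 0.34, from 13.9, 9.49 and 4.55 FPKM in DOX to 17.0, 16.9 and 27.4 in DOX + K35. Lsm14b, an LSm-domain protein of cytoplasmic RNA granules, rose by 0.92 ± 0.27.

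Lsm7, which belongs to the same LSm ring as Lsm4, fell by 1.09 on the log2 scale (SE 0.44, limma adjusted p = 0.0453). It was at 1.85, 6.58 and 10.5 FPKM in Saline, 8.27, 9.49 and 9.17 in DOX, 4.99, 1.66 and 5.37 in DOX + K35 and 5.17, 8.59 and 8.74 in DOX + K27. DOX + K35 lay wholly below DOX, but the Saline libraries spanned both. The call was lost in 7 of the 12 fits without 1 library, with an adjusted p of up to 0.231 without DOX + K35 replicate 2. The remaining genes of this role did not pass: Lsm3 was at -0.45, Snrpa (a protein of the U1 snRNP) at -0.41, and Snrpd1 and Snrpd2 (Sm ring proteins) at -0.36 and -0.55. Snrpb and the genes of its ring partners Snrpd1 and Snrpd2 thus lay on opposite sides of 0.

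Of the SF3 genes, which form the part of the U2 snRNP that holds the branch point, Sf3b2 rose by 1.09 ± 0.30 (limma adjusted p = 0.00867), and Sf3b1 and Sf3a2 did not pass at -0.32 ± 0.28 and -0.23 ± 0.22. Sf3b1 was at 22.1, 29.2 and 31.4 FPKM in Saline, 28.1, 32.0 and 30.7 in DOX, 23.1, 19.1 and 31.1 in DOX + K35 and 32.5, 27.2 and 36.1 in DOX + K27. Its groups overlapped, with DOX + K35 library C4 inside the range of DOX. Sf3b2 was at 19.0, 15.1 and 8.77 FPKM in DOX and 29.8, 30.8 and 29.9 in DOX + K35, which did not overlap.

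The PRPF genes divided into 3 rises and 2 falls. Prpf19, the ubiquitin ligase of the spliceosome's activation complex, had the highest level of this role and was at 34.6, 32.0 and 21.6 FPKM in Saline, 26.7, 14.2 and 7.97 in DOX, 37.9, 39.2 and 32.3 in DOX + K35 and 35.4, 27.2 and 17.2 in DOX + K27. It rose by 1.26 ± 0.39 (limma adjusted p = 0.0136), a call lost without DOX library B4 (0.86, adjusted p = 0.0555). Prpf6, a bridge within the tri-snRNP, was at 8.42, 6.23 and 3.49 FPKM in DOX and 14.8, 12.9 and 11.2 in DOX + K35 and rose by 1.04 ± 0.28. Prpf38a rose by 1.02 ± 0.22.

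The relative of that gene, Prpf38b, had the opposite sign. It was at 11.1, 15.3 and 17.5 FPKM in Saline, 19.9, 24.8 and 23.2 in DOX, 11.8, 10.5 and 19.0 in DOX + K35 and 17.8, 16.8 and 26.1 in DOX + K27. It fell by 0.72 on the log2 scale (SE 0.29, limma adjusted p = 0.0488), with DOX + K35 library C4 just under the lowest DOX library. The call was kept in 4 of 12 fits without 1 library, with an adjusted p of up to 0.190 without DOX + K35 replicate 2. Prpf39, a U1-associated protein, fell by 0.82 on the log2 scale (SE 0.33, adjusted p = 0.0485) from 11.7, 13.5 and 12.2 FPKM to 5.20, 4.18 and 12.9, where library C4 lay within the range of DOX, and it was called in 2 of the 12 fits. Prpf40b was at -0.67 ± 0.28 and did not pass (adjusted p = 0.0558).

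The SR and LUC7-like genes were all below 0 in DOX + K35, and 1 of the 7 passed. Luc7l2 (chr6:38551334-38609470 on the plus strand, overlapped by the gene model Gm26699) was at 37.1, 45.9 and 60.3 FPKM in Saline, 75.8, 97.0 and 81.5 in DOX, 37.1, 24.4 and 65.1 in DOX + K35 and 60.1, 56.3 and 89.0 in DOX + K27. DOX stood wholly above Saline and above DOX + K35. Luc7l2 fell by 1.09 on the log2 scale (SE 0.37, limma adjusted p = 0.0200), and the call was lost without DOX library B3 (adjusted p = 0.0721), without DOX + K35 replicate 1 (0.0606) and without DOX + K35 replicate 2 (-0.77, adjusted p = 0.120), and also when only the 2 groups compared were fitted.

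Srsf5, an SR protein and the most abundant member by FPKM in this role, was at 94.0, 104 and 98.7 FPKM in Saline, 124, 139 and 129 in DOX, 76.7, 74.4 and 153 in DOX + K35 and 109, 112 and 169 in DOX + K27. DOX + K35 replicates 1 and 2 were below every other library and library C4 was above every DOX library, so the difference of -0.44 ± 0.34 did not pass (limma adjusted p = 0.272). In Srsf2, an SR protein of exon recognition, DOX + K35 lay likewise on both sides of DOX, with 69.9, 53.1 and 136 FPKM in DOX + K35 against 102, 105 and 86.6 in DOX. Srsf7 was at 26.0, 31.4 and 24.0 FPKM in DOX and 18.5, 11.3 and 23.3 in DOX + K35, values that did not overlap, at -0.64 ± 0.31 (adjusted p = 0.0940). Srsf11, Srsf4 and Luc7l were at -0.73, -0.29 and -0.19. The median of the 7 genes was -0.44, and it was -0.78 without library C4, when 3 of the 7 and 16.8% of all genes were called lower. After median-ratio scaling, quantile normalization, removal of the 20 highest genes and removal of the mitochondrially encoded genes, 5, 7, 7 and 3 of the 7 were called lower, in fits that called 34.0%, 32.2%, 43.5% and 27.2% of all genes lower.

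The CLK kinases were at -0.71 to -0.84 and none passed, with limma adjusted p-values of 0.0503 to 0.0844. Clk1 (chr1:58410189-58424066, minus strand) was at 37.2, 39.3 and 56.3 FPKM in Saline, 41.3, 63.6 and 74.3 in DOX, 28.1, 22.4 and 52.0 in DOX + K35 and 49.6, 46.9 and 68.4 in DOX + K27. Clk4 was at 21.5, 24.6 and 33.6 FPKM in Saline, 31.5, 43.5 and 40.7 in DOX, 19.6, 14.4 and 37.4 in DOX + K35 and 30.5, 32.3 and 54.9 in DOX + K27. In both genes DOX + K35 replicates 1 and 2 were below every DOX library and library C4 was within the range of DOX. Without library C4 all 3 CLK genes were called lower, with a median of -1.14, in a fit that called 16.8% of all genes lower. Over the 12 fits without 1 library, Clk1 and Clk2 were each called in 2 and Clk4 in 1. All 3 were also called lower after each of the 4 other scalings. Of all genes, 34.0% (median-ratio), 32.2% (quantile), 43.5% (20 highest genes left out) and 27.2% (mitochondrially encoded genes left out) were called lower there.

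The hnRNP genes were at -0.43 to -0.71. Hnrnph3, which binds runs of G in transcripts, was at 7.74, 11.4 and 12.5 FPKM in Saline, 12.4, 13.0 and 13.8 in DOX, 8.10, 5.59 and 9.61 in DOX + K35 and 12.3, 14.3 and 17.2 in DOX + K27. It fell by 0.71 on the log2 scale (SE 0.26, limma adjusted p = 0.0321) with no overlap between the groups, a call kept in 8 of 12 fits without 1 library and lost without DOX library B3 or B4 or DOX + K35 replicate 1 or 2, with an adjusted p of up to 0.162. Its relative Hnrnph1 was at -0.67 ± 0.33 (adjusted p = 0.0951), with 43.5, 55.3 and 42.1 FPKM in DOX and 28.0, 19.2 and 44.7 in DOX + K35. Hnrnpdl was at -0.43 ± 0.31.

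Of the 11 RBM genes 4 rose and none fell. Rbm45 (chr2:76369984-76383768, plus strand), an RNA-binding protein of RNA granules, was at 4.01, 3.38 and 2.92 FPKM in Saline, 2.35, 1.40 and 0.399 in DOX, 4.84, 4.75 and 4.86 in DOX + K35 and 2.71, 2.43 and 1.67 in DOX + K27. The 3 DOX + K35 libraries were close together and above the 9 others. Rbm45 rose by 1.38 ± 0.27 (limma adjusted p = 0.00497). Rbm19, a ribosome biogenesis factor, was at 1.5, 1.31 and 0.80 FPKM in DOX and 3.15, 3.12 and 3.18 in DOX + K35 and rose by 0.93 ± 0.19, and Rbm17, a splicing factor of 3' splice sites, rose by 1.13 ± 0.34. Rbm12, whose mean was under 1 FPKM without DOX + K35, rose by 0.55 ± 0.15 and overlaps Cpne1 on the same strand, so reads of the pair may have been divided between them. Rbm39, the most abundant RBM gene, was at 65.2, 74.0 and 70.5 FPKM in DOX and 48.9, 38.7 and 73.8 in DOX + K35 and did not pass at -0.42 ± 0.31, and the other 6 were at -0.52 to -0.04.

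Of the 16 DDX helicases 11 rose and none fell. Ddx19a (chr8:110974996-110997800, minus strand), a helicase of mRNA export, was at 7.73, 6.60 and 4.22 FPKM in Saline, 3.88, 2.53 and 1.64 in DOX, 8.98, 9.41 and 7.81 in DOX + K35 and 5.89, 5.38 and 2.94 in DOX + K27, and it rose by 1.44 ± 0.29 (limma adjusted p = 0.00497). Ddx54, a nucleolar helicase, was at 4.87, 3.80 and 2.26 FPKM in DOX and 9.82, 10 and 10.5 in DOX + K35 and rose by 1.30 ± 0.27. Ddx18 (chr1:121553835-121567989, minus strand), a helicase of ribosome assembly, was at 3.54, 4.0 and 2.97 FPKM in Saline, 3.52, 2.14 and 1.58 in DOX, 7.84, 7.18 and 5.90 in DOX + K35 and 4.67, 4.21 and 2.74 in DOX + K27. All 3 DOX + K35 libraries were above the 9 others for Ddx18, and the rise was 1.26 ± 0.24 (adjusted p = 0.00497).

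The other helicases of ribosome assembly that rose were Ddx10 (1.09), Ddx27 (1.06), Ddx21 (1.04) and Ddx31 (0.54), the last called in 6 of 12 fits without 1 library, and Ddx55 of the same process was at -0.35 and did not pass. Ddx1, which acts in tRNA ligation, rose by 1.28, Ddx3x, a translation factor, by 1.23, Ddx6, a helicase of mRNA decay and storage, by 1.06 and Ddx28, which acts in mitochondrial ribosome assembly, by 0.85. Ddx17, a partner of transcription and splicing factors and the most abundant DDX gene, was at 42.5, 39.8 and 49.8 FPKM in Saline, 63.7, 52.5 and 41.4 in DOX, 37.3, 29.6 and 82.3 in DOX + K35 and 54.3, 45.6 and 67.1 in DOX + K27. Its DOX + K35 values spanned the range of all groups, and its difference of -0.20 ± 0.37 turned to 0.10 without DOX + K35 replicate 2. Ddx39b, an export helicase, Ddx11, a DNA helicase, and Ddx60 were at -0.23, -0.24 and -0.38.

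Among the DHX helicases, Dhx15, which takes the spliceosome apart, was at 12.8, 12.0 and 7.98 FPKM in Saline, 9.64, 6.95 and 5.94 in DOX, 19.3, 16.1 and 16.6 in DOX + K35 and 10.3, 12.7 and 9.31 in DOX + K27. It rose by 1.13 ± 0.26 (limma adjusted p = 0.00567), and DOX + K35 was above all 9 other libraries. Dhx9, also known as RNA helicase A, was at 6.32, 5.53 and 3.72 FPKM in DOX and 11.5, 12.0 and 10.3 in DOX + K35 and rose by 1.01 ± 0.24. Dhx29, a factor of translation initiation, rose by 1.04 ± 0.25 and Dhx40 by 0.98 ± 0.28. Dhx33, Dhx34 (a factor of nonsense-mediated decay) and Dhx35 were at -0.37, -0.28 and -0.20 and did not pass.

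Of the partner proteins Nop56 and Nop58 only Nop58 passed. It rose by 0.52 ± 0.18 (limma adjusted p = 0.0227), from 1.95, 1.87 and 1.44 FPKM in DOX to 3.24, 2.52 and 3.04 in DOX + K35. The call of Nop58 was kept in 10 of the 12 fits without 1 library. Nop56 was at 8.19, 8.64 and 14.8 FPKM in Saline, 16.9, 21.3 and 14.3 in DOX, 15.4, 11.8 and 21.4 in DOX + K35 and 15.9, 13.0 and 14.8 in DOX + K27. Its difference of -0.12 ± 0.29 did not pass and turned to 0.02 without DOX library B3 and to 0.07 without DOX + K35 replicate 2. Nop56 and Snrpb are 95027 bases apart on chromosome 2, and in DOX against Saline Nop56 was at 0.71 and Snrpb at -1.32. Nop56 hosts small nucleolar RNAs in its introns and overlaps Idh3b on the opposite strand, and whether the counting used strand is not given in the sources used here.

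**Figure D3:**
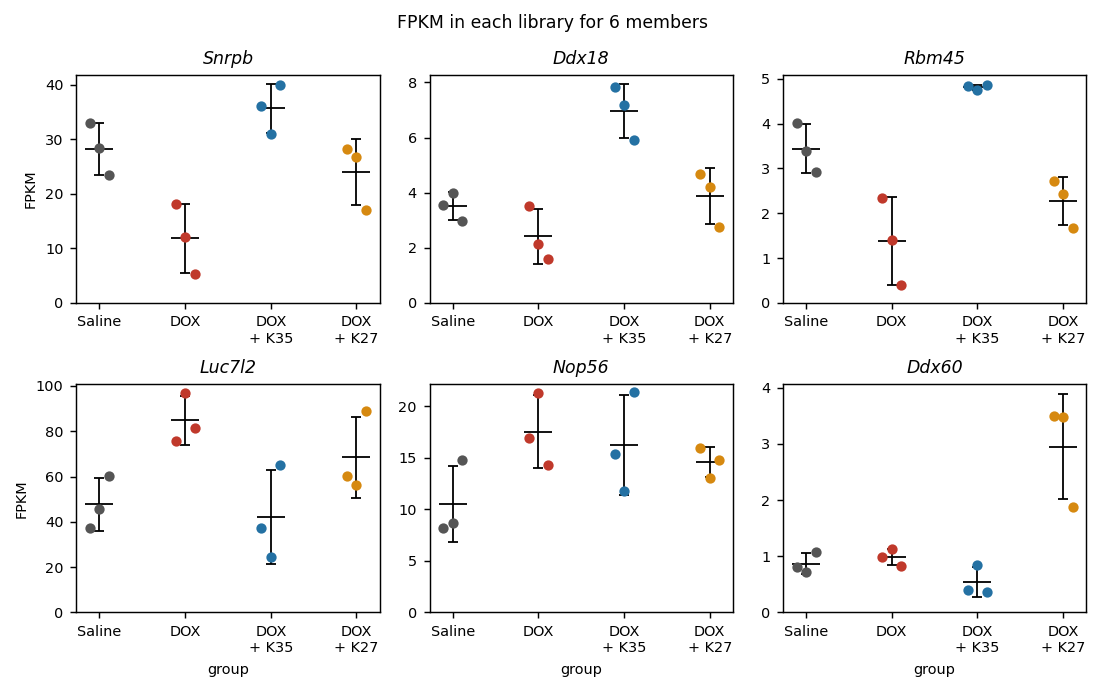
FPKM (y axis, from 0) in each library by group for Snrpb, Ddx18, Rbm45, Luc7l2, Nop56 and Ddx60, with a bar at the mean and an error bar of 1 SD (n = 3). The DOX + K35 points of Snrpb, Ddx18 and Rbm45 are above every DOX point, those of Luc7l2 are below every DOX point, and the DOX + K27 points of Ddx60 are above all 9 others.

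The comparison of DOX + K27 with DOX asks the same of K27. No member passed, against 0.0603% of all genes. The members nearest the threshold were Ddx60, an interferon-inducible helicase of the antiviral response, at 0.96 ± 0.20 (limma adjusted p = 0.106), and Prpf6 at 0.84 ± 0.28 (adjusted p = 0.155), and the largest difference was that of Snrpb at 1.07 ± 0.37 (adjusted p = 0.155). The median of members was 0.11 and that of all genes 0.36, with 43 members above 0 and 23 below. Of the DDX genes 15 of 16 were above 0 (median 0.49), while the medians of the SR and LUC7-like genes and of the CLK genes were -0.03 and -0.10. Values did not overlap for 10 higher members (15.2%) and 1 lower member (1.52%), against 15.9% and 2.68% of all genes. Without DOX replicate 1, which had the lowest mitochondrial share of the 3 DOX libraries, 17 members were called higher (25.8% of members against 32.3% of all genes). Without DOX + K27 replicate 3 Ddx60 was called higher (1.52% of members against 0.362% of all genes). Ddx60 met the minimum of 1 FPKM only through DOX + K27, so its place among the genes tested was not independent of this difference. The signs depended on the scaling for 17 of the 66 members.

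K35 and K27 were given at the same dose and on the same days, so the compounds can be compared directly, as 1 pair. In this comparison 1 member passed: Ddx60 was lower with K35 than with K27, at -1.34 ± 0.20 on the log2 scale (95% interval -1.77 to -0.91, limma adjusted p = 0.00544). Ddx60 was at 0.808, 0.715 and 1.08 FPKM in Saline, 0.994, 1.13 and 0.833 in DOX, 0.406, 0.850 and 0.365 in DOX + K35 and 3.49, 3.48 and 1.87 in DOX + K27. The DOX + K27 libraries were above all 9 others, and the call held in each of the 12 fits without 1 library and in each of 5 scalings. The gene met the minimum of 1 FPKM only through DOX + K27, the group in which it was high, so its place among the genes tested was not independent of this difference. With no filter it was also called (adjusted p = 0.00447). At levels this low the added 1 FPKM shrinks the fold change, which was -2.27 with 0.1 FPKM added. Ddx60 has 38 exons at chr8:61928087-62038244 on the plus strand, and its promoter above holds the interferon response core in both capitalised places. Of all genes tested 0.422% were higher and 1.69% lower with K35 than with K27, so 1 lower call among 66 members (1.52%) is near the background.

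For the other 65 members the difference did not pass, and the intervals show how much remained possible. Rbm45 was at 0.85 (95% interval 0.28 to 1.41, limma adjusted p = 0.0935), Ddx3x at 0.91 (0.27 to 1.56, adjusted p = 0.101) and Ddx18 at 0.73 (0.21 to 1.24, adjusted p = 0.104). Hnrnpdl was at -0.94 (-1.60 to -0.28, adjusted p = 0.101), Hnrnph3 at -0.85 (-1.41 to -0.29, adjusted p = 0.0876) and Clk1 at -0.74 (-1.51 to 0.04, adjusted p = 0.187). Hnrnpdl, an AU-rich element binding protein, was at 25.5, 28.4 and 34.9 FPKM in Saline, 34.3, 34.4 and 28.7 in DOX, 22.1, 17.1 and 35.4 in DOX + K35 and 42.5, 40.5 and 58.3 in DOX + K27, so that every DOX + K27 library was above all others. By role, all 13 SR, LUC7-like, CLK and hnRNP genes were below 0 and 11 of 16 DDX genes and 5 of 7 DHX genes above 0. These signs are not set here against those of all genes. Without DOX library B4 the calls numbered 4 higher and 2 lower (4.37% and 4.13% of all genes) and without DOX + K35 library C4 they numbered 3, all lower (4.22%).

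With the replicate number as a block, which drops libraries B3, B4 and C4, 13 members were higher and 20 lower with K35 than with K27 (19.7% and 30.3% of members), against 25.1% and 18.5% of all genes. The 13 included 8 DDX and 3 DHX genes, led by Ddx3x (0.77 ± 0.10, limma adjusted p = 0.0146) and Dhx29 (0.77 ± 0.19, adjusted p = 0.0283). The 20 included 5 SR and LUC7-like genes, all 3 CLK genes and all 3 hnRNP genes, such as Hnrnpdl (-1.08 ± 0.14, adjusted p = 0.0146), Luc7l2 (-0.94 ± 0.20, adjusted p = 0.0206) and Clk1 (-0.90 ± 0.12, adjusted p = 0.0146). The same 9 libraries without the block gave 6 higher and 10 lower (9.09% and 15.2% of members against 9.26% and 11.2% of all genes). In each of these 2 fits DOX + K35 was represented by replicates 1 and 2 alone. Equal replicate numbers are not known to mark pairs, so the blocked values rest on an assumption.

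Against Saline, no member passed with K35 (0.181% of all genes did) or with K27 (0.121% of all genes). The members nearest the threshold with K35 were Ddx18 at 0.82 ± 0.24 (limma adjusted p = 0.184) and Rbm19 at 0.58 ± 0.19 (adjusted p = 0.209). Of the DDX genes 13 of 16 were above 0, a count that is not set here against the signs of all genes. With the replicate block 4 members, Ddx18, Ddx21, Ddx3x and Prpf38a, were higher with K35 than in Saline (6.06% of members against 4.55% of all genes) and Clk1 was lower (1.52% against 2.53%), and the same 9 libraries without the block called no member, with 0.121% of all genes higher and 0.0301% lower. With K27 the member nearest the threshold was Ddx60 at 1.05 ± 0.20 (adjusted p = 0.0566), which again met the minimum only through DOX + K27. It passed in 5 alternatives, namely without DOX + K35 library C4 (adjusted p = 0.0431), without DOX + K27 replicate 3 (0.0203), with no filter (0.0346), with the 20 highest genes left out (0.0312) and with the mitochondrially encoded genes left out (0.0310), and its adjusted p ranged from 0.0203 to 0.382 over all alternatives. Hnrnpdl was next at 0.64 ± 0.31 (adjusted p = 0.839).

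The balance of splice-site regulators to helicases was also taken in each library as a ratio, which a constant factor for that library does not alter. The helicases did not share a sign in DOX + K35 against DOX, as 15 of the 23 were above 0 and 8 below, Ddx17 among the 8. The summed FPKM of the 10 SR, LUC7-like and CLK genes divided by that of the 23 DDX and DHX genes was 1.62, 1.89 and 2.44 in Saline, 2.32, 3.38 and 4.24 in DOX, 1.21, 1.13 and 1.93 in DOX + K35 and 2.14, 2.14 and 3.24 in DOX + K27. The highest DOX + K35 value was under the lowest DOX value, and DOX overlapped both Saline and DOX + K27. The 2 sets were chosen after their values were seen, so no test is given. The mitochondrial share moved with the ratio: in each of the 4 groups the library with the highest ratio was also the one with the highest mitochondrial share, namely Saline replicate 3 (61.9%), DOX library B4 (83.3%), DOX + K35 library C4 (48.7%) and DOX + K27 replicate 3 (68.0%). The part of that share in the ratio was not tested. The sum over the 23 helicase genes was 126 to 211 FPKM in DOX and 221 to 295 in DOX + K35, and that over the 10 regulators was 490.0 to 594 and 251 to 571.

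**Figure D4:**
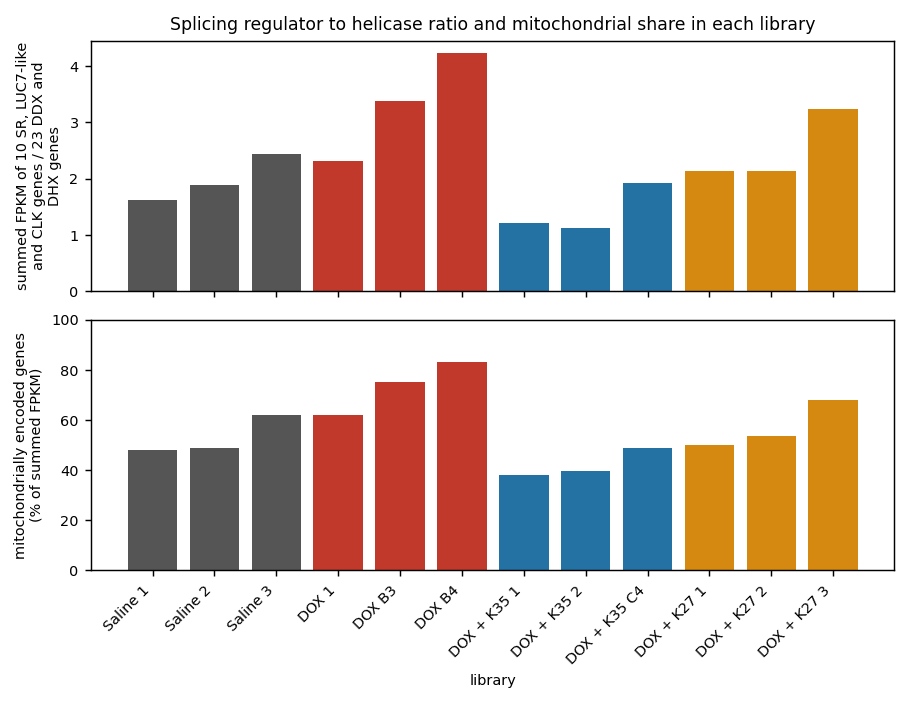
Top, summed FPKM of the 10 SR, LUC7-like and CLK genes divided by that of the 23 DDX and DHX genes, and bottom, the percent of summed FPKM from mitochondrially encoded genes, as bars from 0 for each of the 12 libraries, coloured by group. The ratio runs from 1.13 to 1.93 in DOX + K35 and from 2.32 to 4.24 in DOX, and the tallest ratio bar of each group stands over the highest mitochondrial share of that group.

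Genes of the same pathways outside the name rule were listed from general knowledge. In DOX + K35 against DOX, 46.0% of all genes tested were called higher and 10.7% lower. The lists are short, and whether their counts of calls differ from these shares was not tested. Of 42 further spliceosome genes 13 were in the table, and in DOX + K35 against DOX 8 rose and none fell, led by Snw1 (1.56 ± 0.31, limma adjusted p = 0.00497), Plrg1 (1.15 ± 0.32, adjusted p = 0.00884), Cdc5l (1.13 ± 0.25, adjusted p = 0.00539) and Eftud2 (1.06 ± 0.25, adjusted p = 0.00573). Snw1, Plrg1 and Cdc5l act with Prpf19 in spliceosome activation, and Eftud2 is a GTPase of the U5 snRNP. The median of the 13 was 0.91, against 0.46 over all genes. Of 43 further splicing regulators 11 were in the table, of which Ptbp3 (1.26) and Nono (1.19) rose and Pnn (-0.77) and Tra2a (-0.71), both with domains of the SR type, fell, with a median of -0.28. Of 16 further nucleolar genes 7 were in the table and 6 rose, led by Dkc1 (1.13 ± 0.21), the pseudouridine synthase of box H/ACA particles, with a median of 0.81.

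In the same comparison 3 of the 4 hepatocyte markers, 4 of the 7 Kupffer markers and 2 of the 4 stellate and endothelial markers in the table rose, all 4 globin genes and the single lymphocyte marker fell, and the single neutrophil marker did not pass. Of all genes tested 46.0% were called higher and 10.7% lower there, and these lists are short. No proliferation marker was in the table. None of these lists held a call in DOX against Saline, DOX + K27 against DOX or the other 3 comparisons. Whether the makeup of the tissue bore on the members was not tested.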

How the data were processed

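Liver mRNA of 12 samples (4 groups of 3) was enriched on poly-T beads, made into libraries with the NEBNext Ultra kit and sequenced on an Illumina NovaSeq instrument. The deposited table holds 1 expression value per gene and library. The authors' notes name HISAT2, DESeq2, edgeR and GRCm38, and the version of each, the counter, the annotation and the use of strand are not given in the sources used here. The deposited values were treated as FPKM, after the study's methods. The header names no unit, and TPM would differ by 1 factor per library. Depth is unknown, so no counting interval is given. The table holds a selection of genes by the authors, 280 of its rows being newly assembled loci.

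Of the 3799 rows 3317 averaged 1 FPKM or more over the libraries, and these were fitted as log2(FPKM + 1) with limma 3.58.1 (R 4.3.3), 1 mean per group over all 12 libraries with a mean-variance trend. P-values were adjusted by Benjamini-Hochberg within each of 6 comparisons, with a threshold of 0.05. Fold changes on the log2(FPKM + 1) scale understate changes of low genes. SD is over the 3 libraries of a group, while SE and 95% intervals use a spread pooled over all libraries of the fit. The labels call the libraries of a group replicates without naming the animals, so p-values measure the spread between these samples, which may be technical. On simulated data for DOX against Saline (3317 genes, 200 changed), a log2 change of 1 was recovered for 39.5% and of 2 for 91.5%, with 7.06% and 4.19% of calls false. The simulation drew each gene independently, with no difference shared by the genes of a library, so these rates may not hold for the data.

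The alternatives changed the scaling (median-ratio, quantile, the 20 highest genes left out), the pseudocount (0.1), the filter (none), the samples (the 2 groups compared, or 11 of the 12 libraries), took off a trend on transcript length, or blocked on replicate number. Leaving out mitochondrially encoded genes and using numbered libraries without a block were added after the data were seen. Libraries B3, B4 and C4 match a group by name but no replicate number, so the block drops them. Deviations of the 10 same-numbered pairs correlated at 0.109 to 0.474. Pairs with different numbers were not examined, so these values cannot show that the numbers mark pairs. The labels give no source for a pairing, so the blocked fits rest on an assumption.

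The members and lists were chosen with earlier results of these data known. Genes named are, in each comparison, up to 4 largest rises and falls past the threshold without overlap (or the 2 smallest p-values where none passed), the highest member of each role, the genes fixed by name (Rbm3, Clk1, Clk4, Srsf2, Srsf3, Srsf5, Srsf7, Hnrnpa1, Hnrnpk, Sf3b1, U2af1, Snrnp70, Ddx5, Dhx9 and Nop56, where present) and up to 4 genes of each pathway list. Other members were named after their values were seen. Promoters are RefSeq's (GRCm38.p6), and positions are from GENCODE M21, in which all 66 members had the same symbol. Python 3.11.15, numpy 2.4.6, pandas 2.3.3, scipy 1.17.1 and matplotlib 3.10.9 were used.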

Additional observations from a re-analysis of the deposited data

Results flagged for a closer look

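The level of Ddx60 differed between the compounds by a test of the difference itself, though the gene met the minimum of 1 FPKM only through its DOX + K27 values (mean 2.95 FPKM, against 0.867 in Saline, 0.984 in DOX and 0.540 in DOX + K35). Its log2 fold change in DOX + K35 against DOX + K27 was -1.34 (95% interval -1.77 to -0.91, limma adjusted p = 0.00544), with each of the 3 DOX + K35 libraries below each of the 3 DOX + K27 libraries. Over all alternatives the value ran from -2.27 to -1.12 and the call held in each. With no filter on low values the adjusted p was 0.00447.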

How the results depend on the processing

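Direction and call were as reported in 1002 of the single-gene values under the alternatives, 89 became significant, 34 lost significance and 6 reversed. The reversed values were those of Sf3b1 in DOX against Saline (-0.0032 without Saline replicate 1, and up to 0.24 without replicate 3), Dhx15 and Dhx9 in DOX against Saline (0.04 and 0.03 with the 20 highest genes left out), Ddx17 in DOX + K35 against DOX (0.10 without DOX + K35 replicate 2, against -0.20) and Nop56 in the same comparison (0.02 without library B3 and 0.07 without DOX + K35 replicate 2, against -0.14 without DOX replicate 1). The number of members called moved with the scaling: in DOX against Saline from 0 to 15 (median-ratio), 20 (quantile) and 34 (20 highest genes left out), in DOX + K35 against DOX from 32 to 57, 59, 54 and, without mitochondrially encoded genes, 49, in DOX + K27 against DOX from 0 to 1 (quantile) and 1 (20 highest left out), in DOX + K35 against DOX + K27 from 1 to 7, 2 and 4, and in DOX + K27 against Saline from 0 to 1 with no filter, with the 20 highest left out and without mitochondrially encoded genes. The median of all genes in DOX + K35 against DOX was 0.46, and 0.21, 0.12, -0.13 and 0.23 after these 4 scalings. In DOX + K35 against DOX + K27, 4.76% of all genes were called higher and 3.98% lower after median-ratio scaling. These shares were 2.86% and 2.68% (quantile) and 1.08% and 6.72% (20 highest left out). In DOX + K27 against DOX 0.121% (quantile) and 0.180% (20 highest left out) were called lower. In DOX + K27 against Saline 0.263% (no filter), 0.210% (20 highest left out) and 0.151% (without mitochondrially encoded genes) were called higher. With the replicate block, DOX + K35 against DOX + K27 gave 33 calls and DOX + K35 against Saline 5, and the same numbered libraries without the block gave 16 in the former. The block changed no call in DOX + K27 against Saline, and no blocked fit against DOX was possible because 1 DOX library has a number. The members' median minus that of all genes was 0.50 in DOX against Saline and moved to 0.66 (pseudocount 0.1), 0.30 (no filter) and 0.69 (quantile). In DOX + K35 against DOX it was -0.65 and moved to -0.28 (no filter) and -0.84 (length trend), and in DOX + K27 against DOX it was -0.25 and moved to -0.37 (pseudocount 0.1), -0.13 (no filter) and -0.40 (quantile). Leaving out 1 library gave 0 to 18 calls in DOX against Saline, 26 to 39 in DOX + K35 against DOX, 0 to 17 in DOX + K27 against DOX, 1 to 6 in DOX + K35 against DOX + K27 (6 without library B4 and 3 without library C4) and 0 to 1 in DOX + K27 against Saline, and median differences of 0.34 to 0.60, -0.83 to -0.40, -0.38 to -0.11 and -0.34 to -0.12 in the first 4. In the second it was -0.77 without DOX replicate 1 and -0.83 without library C4, and in the third -0.14 without DOX + K27 replicate 1 and -0.11 without library B4. The cause of these shifts was not tested. Without DOX replicate 1, 41.9% of all genes were called lower in DOX against Saline and 32.3% higher in DOX + K27 against DOX. Without library C4, 46.7% were called higher and 16.8% lower in DOX + K35 against DOX. Without library B4, 4.37% were higher and 4.13% lower in DOX + K35 against DOX + K27. These are the fits without 1 library that called the most members in those comparisons.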
